A study of Mus musculus with 24 samples.

Results

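The genes described here encode the BBSome, the intraflagellar transport (IFT) particles and proteins that work with them at the cilium. They were taken from a list of 43 names, matched to the gene symbols of the array without regard to case, and 39 of the 43 had a probe, among 17741 measured genes. Arl6, Arl13b, Dync2h1 and Dync2li1 were not measured here. By role, 11 of the measured members belong to the BBSome with its chaperonins and regulators, 18 to IFT complexes A and B, and 10 are motors, small GTPases and cargo carriers, or basal body and transition zone proteins.

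A primary cilium is an antenna-like protrusion that grows from a centriole, the basal body. IFT-B particles, pulled by kinesin-2, carry building material to its tip, IFT-A particles and dynein-2 bring material back, and the BBSome rides on these trains as an adaptor that moves membrane proteins out of the cilium. Blood-forming cells are not known for prominent cilia, and several IFT proteins also work in vesicle traffic outside the cilium.

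The study compared bone marrow cells of C57BL/6 mice labelled BAP1 KO with those labelled BAP1 WT. BAP1 removes ubiquitin from histone H2A in the nucleus. Per the labels, tamoxifen injection of the mice induced the systemic deletion, and no source used here names the promoter that drove the recombinase, the tamoxifen dose or the age of the mice. The 4 groups were KO LSK cells (lineage-, ScaI+, Kit+, enriched for hematopoietic stem cells, mice 2 and 4), WT LSK cells (mice 1 and 3), KO myeloid progenitors (lineage-, ScaI-, Kit+, mice 7 and 8) and WT myeloid progenitors (mice 5 and 6). Each mouse gave 1 population, and its RNA was hybridised to 3 arrays. The arrays carry no count depth, and the 2 mice per group limit the precision.

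Before the results, 3 checks of the samples bear on them. By its probe, Bap1 was no lower in KO than in WT mice. It gave log2 signals of 11.96 and 11.84 in the KO LSK mice, against 11.55 and 11.45 in the WT LSK mice. In myeloid progenitors Bap1 read 11.67 and 11.85 in the KO mice, against 11.54 and 11.59 in the WT mice. The changes of 0.40 ± 0.18 (adjusted p = 0.321) in LSK cells and 0.20 ± 0.18 (adjusted p = 0.843) in myeloid progenitors did not pass. No source used here says where that probe lies relative to the deleted stretch, so it does not check the labels. Of 9 measured stem cell markers, 6 were higher in KO LSK cells than in KO myeloid progenitors (7.26% of all genes). In WT mice 7 were higher in LSK cells than in myeloid progenitors (8.08% of all genes). Slamf1, with signal near the low end of the arrays, was lower in KO LSK cells than in KO myeloid progenitors (-0.34 ± 0.08, adjusted p = 0.0277). Of 11 myeloid markers 8 were lower in each comparison (5.49% of all genes in KO mice and 5.46% in WT mice). Mice 1 and 5, both WT, carried signal of the Y-linked gene Kdm5d (7.88 and 8.15, against 5.93 to 6.03 in the other 6 mice), so counts are also given without them.

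All values below are deposited log2 signals of a gene's brightest probe, averaged over the 3 arrays of a mouse, and a pair of values gives the mice of a group in the order named above. Changes are log2 differences with the standard error (SE) of limma's moderated test on 2 mice per group, and adjusted p is its Benjamini-Hochberg value over all 22439 probes, with a threshold of 0.05. That SE rests on a spread pooled over the 4 groups and drawn towards that of other probes. A gene therefore has the same SE in both populations. Probes differ in brightness for reasons other than RNA amount, so the level of 1 gene is not set against that of another. In bulk RNA of a sorted population, fewer cells of a type and less RNA per cell cannot be told apart.

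Ciliary genes are known for a promoter element, the X-box, which binds RFX transcription factors. RefSeq promoter windows (GRCm38.p6, from 250 bases before to 50 after the start) were available for 38 of the 43 listed genes and were searched on both strands for the letters GTNNCC, any 2 bases, then NGNAAC, and apart from that for the half-site GTTGCC, which can overlap the X-box. The 4 members with an X-box match are printed here because 3 of them are BBSome subunits that fell in KO cells. The match is in capitals, 5′ to 3′ on the strand of the gene, and the letters matched on that strand in Bbs4, on the opposite strand in Bbs1 and Ift57 and on both in Bbs7.
Bbs7 (chr3:36613489-36613518, minus strand): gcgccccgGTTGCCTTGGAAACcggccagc
Bbs4 (chr9:59353464-59353493, minus strand): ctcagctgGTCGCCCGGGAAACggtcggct
Bbs1 (chr19:4906605-4906634, minus strand): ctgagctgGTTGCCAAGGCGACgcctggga
Ift57 (chr16:49699199-49699228, plus strand): cgggtctgGTTGCCGTGGTGACcggctgcc
Counted from the start, the centre of the match lay at -114 in Bbs7, -80 in Ift57, 8 in Bbs1 and 30 in Bbs4. An X-box match was found in 4 of the 38 members (10.5%) and in 673 of 27025 genes with a window (2.49%), and the half-site in 15 of the 38 (39.5%) and in 3821 of the 27025 (14.1%). Among the members with a window that were measured, 3 of the 22 that were lower in KO cells over both populations held an X-box (13.6%) and 10 the half-site (45.5%), against 1 (7.69%) and 3 (23.1%) of the 13 others. A match describes letters in the window and is not a binding site, and none of these shares was tested.

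Across the members, which were chosen with earlier results of these data known, KO cells read lower than WT cells in both populations. In KO LSK cells 16 of the 39 members fell and 0 rose, while among all genes 2.9% fell and 1.74% rose. In KO myeloid progenitors 15 of the 39 fell and 0 rose, against 1.74% lower and 0.908% higher among all genes. The median change of the members was -0.68 in LSK cells and -0.64 in myeloid progenitors, beside 0.0155 and 0.0014 over all genes. For the mean of both contrasts 24 of the 39 fell and 0 rose (4.85% and 3.09% of all genes), with a median of -0.62. At an unadjusted p under 0.05, limma likewise had 0 members higher in either population or on average. It had 25 lower in LSK cells, 23 in myeloid progenitors and 25 on average. Shares of all genes at that unadjusted level were not counted, here or below. The SE of a member's change was 0.13 to 0.29 within a population.

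**Figure D1:**
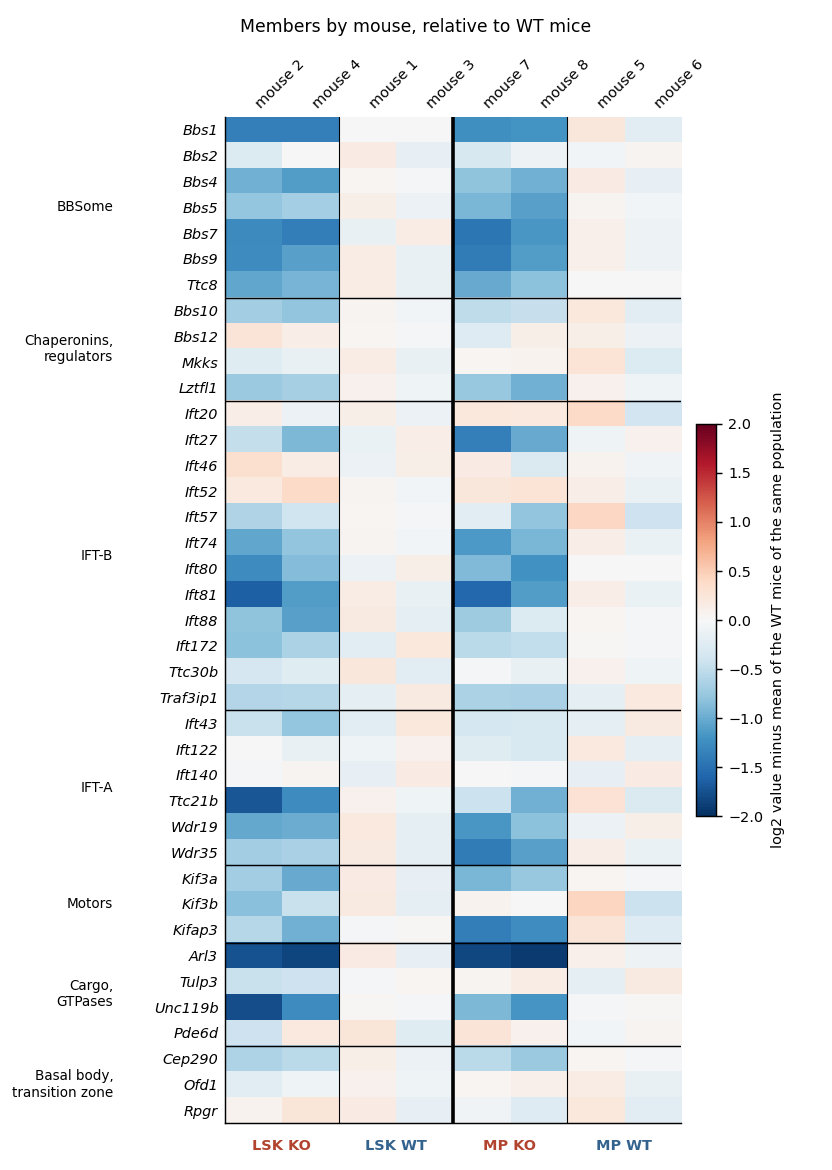
Heat map of the 39 members (rows, grouped by role) in the 8 mice (columns), coloured by the log2 value minus the mean of the WT mice of the same population, blue lower and red higher. MP stands for myeloid progenitors. In 24 members both KO mice lay below both WT mice in each population, with the deepest blue in Arl3.

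The KO and WT mice did not overlap in most members. Both KO mice lay below both WT mice for 28 of the 39 members in LSK cells (20.9% of all genes), for 26 in myeloid progenitors (20.8% of all genes) and for 24 in both populations (9.24% of all genes). In the opposite sense, both KO mice lay above both WT mice for 3 members in LSK cells (Bbs12, Ift46 and Ift52, 25.7% of all genes) and for 2 in myeloid progenitors (Ift52 and Pde6d, 20.3% of all genes). The 24 genes lower in both populations are the members that fell on average over both populations. Of the called members, 12 fell in each population (0.93% of all genes): Bbs1, Bbs5, Bbs7, Bbs9, Ttc8, Lztfl1, Ift74, Ift80, Ift81, Wdr19, Arl3 and Unc119b. Bbs4, Ift88, Ttc21b and Kif3a passed in LSK cells alone, and Ift27, Wdr35 and Kifap3 in myeloid progenitors alone, but the difference between the populations was itself tested and passed for 0 members (0.062% of all genes). For these 7 genes its adjusted p was 0.818 to 0.998. At an unadjusted p under 0.05 limma had 2 of the 39 members in that test. Without the share of all genes at that level, this count is not read as a result. The lowest adjusted p in that test was that of Tulp3 (-0.53, adjusted p = 0.653).

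The counts within a population rested on few mice. The LSK count was 5 without mouse 1 and 7 without mouse 2, and the myeloid progenitor count was 5 without mouse 5, 8 without mouse 6, 4 without mouse 7 and 9 without mouse 8. Without both WT mice with Kdm5d signal, 1 and 5, 3 members fell in LSK cells (Bbs1, Bbs7 and Arl3), 5 in myeloid progenitors (Bbs1, Bbs5, Wdr19, Wdr35 and Arl3) and 18 on average, where Ift88, Ift172, Bbs10, Cep290, Ttc21b and Kif3a lost their calls. Without limma's trend and robust options Ift88, Ift81, Wdr19, Ttc21b and Kif3a lost their calls in LSK cells, and Ift27, Ift81, Kifap3, Unc119b, Wdr19 and Ift80 in myeloid progenitors. With LSK cells alone in the fit, Bbs4, Lztfl1, Kif3a and Ift80 lost theirs. In every fit without 1 mouse the median change of the members lay between -0.75 and -0.67 in LSK cells and between -0.74 and -0.51 in myeloid progenitors, the last value without mouse 5. Where a call is said below to be lost, the parentheses hold the range of the change and the highest adjusted p over the 8 fits that left out 1 mouse. A mouse outside the compared groups does not enter the change. Leaving it out alters only the spread shared by the 4 groups, and with it the adjusted p.

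**Figure D2:**
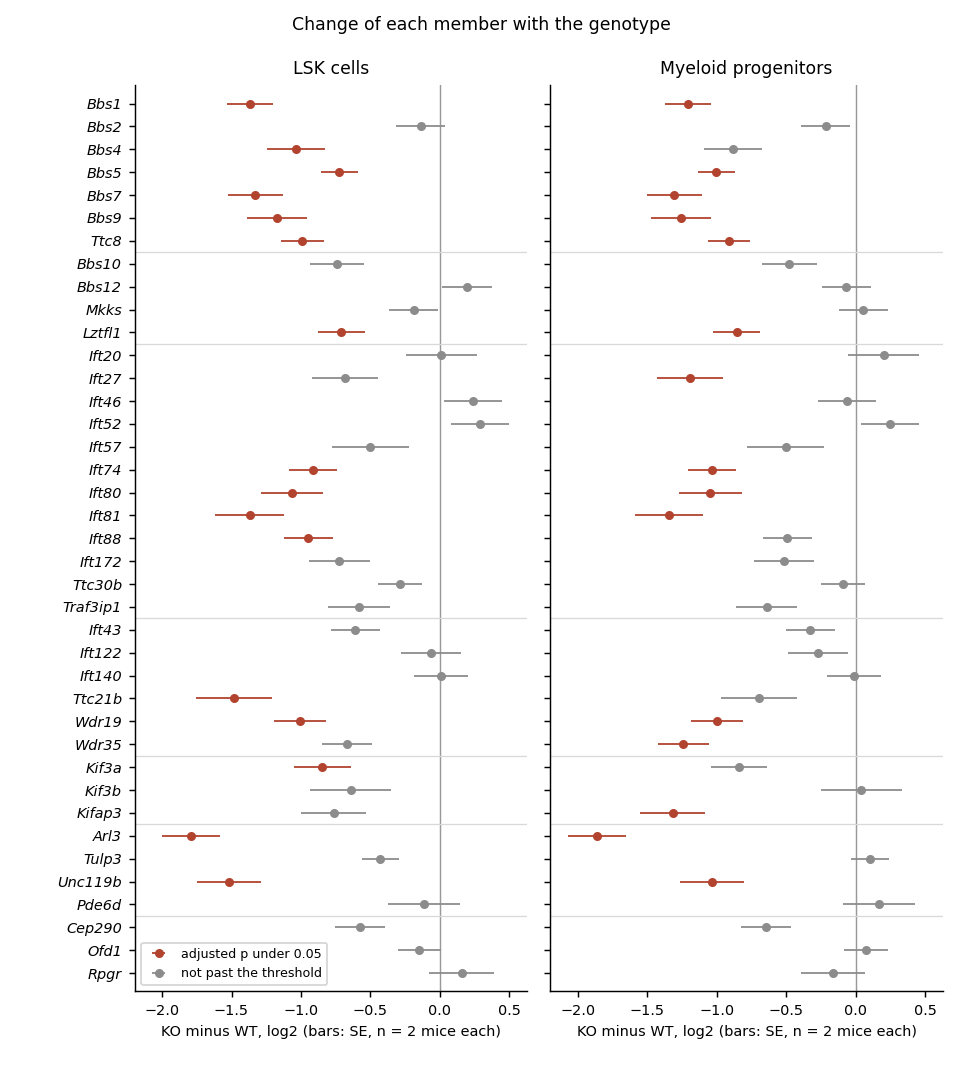
Change of each member (rows, by role) with the genotype, as KO minus WT on the log2 scale with the SE, in LSK cells (left) and myeloid progenitors (right), 2 mice per group. Red points passed an adjusted p of 0.05, 16 in LSK cells and 15 in myeloid progenitors, all below 0.

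The BBSome subunits fell almost throughout: 6 of 7 in KO LSK cells (median -1.04), 5 of 7 in KO myeloid progenitors (median -1.003) and 6 of 7 on average. Bbs7 and Bbs9 belong to the core of the complex. Bbs7 read 7.63 and 7.53 in the KO LSK mice, against 8.77 and 9.05 in the WT LSK mice. In myeloid progenitors Bbs7 read 7.27 and 7.55 in the KO mice, against 8.82 and 8.61 in the WT mice. All 4 KO mice lay below all 4 WT mice, with changes of -1.33 ± 0.20 in LSK cells (adjusted p = 0.0042) and -1.30 ± 0.20 in myeloid progenitors (adjusted p = 0.0064), or 2.51-fold and 2.47-fold lower. Bbs9 read 10.06 and 10.23 in the KO LSK mice, against 11.47 and 11.17 in the WT LSK mice. In myeloid progenitors Bbs9 read 9.47 and 9.75 in the KO mice, against 10.97 and 10.77 in the WT mice. Bbs9 changed by -1.17 ± 0.22 (adjusted p = 0.0126) in LSK cells and -1.26 ± 0.22 (adjusted p = 0.0116) in myeloid progenitors. Its KO and WT mice did not overlap in either population.

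Bbs1, the subunit that binds the GTPase Arl6, read 7.00 and 7.00 in the KO LSK mice, against 8.38 and 8.37 in the WT LSK mice. In myeloid progenitors Bbs1 read 6.10 and 6.11 in the KO mice, against 7.54 and 7.09 in the WT mice. Its KO LSK mice were nearly identical to each other and the change was -1.37 ± 0.17 (adjusted p = 0.0014) in LSK cells and -1.21 ± 0.17 (adjusted p = 0.0033) in myeloid progenitors, where the KO signal was close to the lowest on the arrays. Bbs5, which binds phosphoinositides of the ciliary membrane, read 6.32 and 6.42 in the KO LSK mice, against 7.21 and 6.98 in the WT LSK mice. In myeloid progenitors Bbs5 read 6.505 and 6.33 in the KO mice, against 7.48 and 7.37 in the WT mice. Bbs5 changed by -0.72 ± 0.13 (adjusted p = 0.0125) in LSK cells and -1.003 ± 0.13 (adjusted p = 0.0028) in myeloid progenitors. The arrays' 25th percentiles were 6.15 to 6.18 and their lowest value 5.66, and a change is best read as a minimum where the KO mean was below 6.5. That level was set once the values were known. It applied to Bbs5 and Ift88 in both populations and to Bbs1, Ttc8, Ift43 and Wdr19 in myeloid progenitors, and among the related genes described further on to B9d1 and Wdpcp in both populations and Tmem231 in myeloid progenitors.

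Ttc8 and Bbs4 are subunits built of tetratricopeptide repeats. Ttc8 read 6.83 and 6.94 in the KO LSK mice, against 8.02 and 7.73 in the WT LSK mice. In myeloid progenitors Ttc8 read 6.37 and 6.56 in the KO mice, against 7.37 and 7.39 in the WT mice. Both KO mice lay below both WT mice in each population, with changes of -0.99 ± 0.15 (adjusted p = 0.005) in LSK cells and -0.91 ± 0.15 (adjusted p = 0.0104) in myeloid progenitors. Bbs4 read 9.25 and 9.10 in the KO LSK mice, against 10.25 and 10.18 in the WT LSK mice. In myeloid progenitors Bbs4 read 8.47 and 8.32 in the KO mice, against 9.44 and 9.12 in the WT mice. Its change of -1.04 ± 0.21 (adjusted p = 0.0192) in LSK cells passed and that of -0.88 ± 0.21 (adjusted p = 0.0567) in myeloid progenitors did not, although both KO mice were lower there as well. Bbs2, the last subunit measured, did not pass, with -0.14 ± 0.18 in LSK cells and -0.22 ± 0.18 in myeloid progenitors, and its KO and WT LSK mice overlapped.

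The LSK calls of Bbs1, Bbs7 and Ttc8 and the myeloid progenitor calls of Bbs1 and Bbs5 held whichever mouse was left out. Without both mice 1 and 5 the LSK call of Ttc8 was lost as well (adjusted p = 0.0599). In LSK cells Bbs9 lost its call when mouse 1 or 2 was left out (range -1.32 to -1.03, highest adjusted p = 0.112), Bbs4 when mouse 1, 3 or 4 was left out (range -1.11 to -0.96, highest adjusted p = 0.119) and Bbs5 when mouse 1 or 2 was left out (range -0.84 to -0.61, highest adjusted p = 0.0859). In myeloid progenitors Bbs7 lost it when mouse 7 was left out (range -1.44 to -1.17, highest adjusted p = 0.0597), Bbs9 when mouse 5, 7 or 8 was left out (range -1.40 to -1.12, highest adjusted p = 0.105) and Ttc8 when mouse 5, 6 or 7 was left out (range -1.01 to -0.82, highest adjusted p = 0.0935). On average over both populations all 6 subunits that fell kept their calls whichever mouse was left out.

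**Figure D3:**
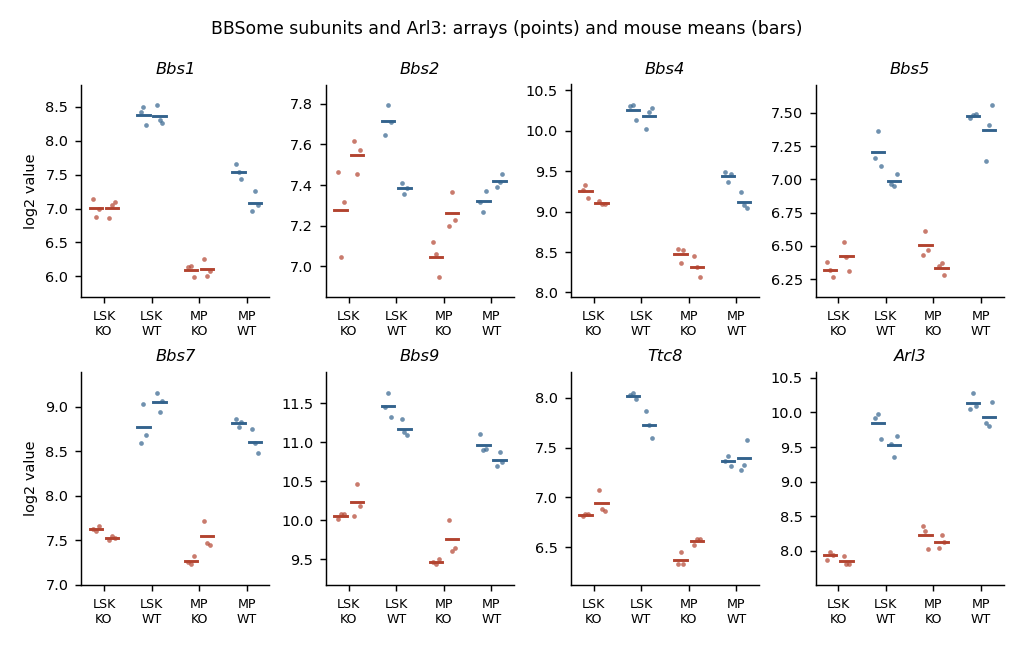
Log2 values of the 7 BBSome subunits and Arl3 on each of the 24 arrays (points) with the mean of each mouse (bars), KO groups in red to the left of WT groups in blue, each axis scaled to its gene and not starting at 0. In every panel but that of Bbs2 the KO mice lie below the WT mice of their population.

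Of the 4 measured chaperonins and regulators, 1 fell in each population, Lztfl1, which limits the entry of the BBSome into the cilium, and 2 fell on average. Lztfl1 read 7.03 and 7.10 in the KO LSK mice, against 7.86 and 7.68 in the WT LSK mice. In myeloid progenitors Lztfl1 read 7.27 and 7.07 in the KO mice, against 8.12 and 7.94 in the WT mice. The groups did not overlap and Lztfl1 changed by -0.71 ± 0.17 (adjusted p = 0.0385) in LSK cells and -0.86 ± 0.17 (adjusted p = 0.0213) in myeloid progenitors. These calls were lost in LSK cells when mouse 1, 2, 3, 4, 7 or 8 was left out (range -0.80 to -0.62, highest adjusted p = 0.226) and in myeloid progenitors when mouse 5, 6, 7 or 8 was left out (range -0.96 to -0.76, highest adjusted p = 0.231). Bbs10, a chaperonin-like protein that helps to assemble the BBSome, read 7.84 and 7.75 in the KO LSK mice, against 8.58 and 8.48 in the WT LSK mice. In myeloid progenitors Bbs10 read 7.74 and 7.78 in the KO mice, against 8.45 and 8.03 in the WT mice. It passed on average only (-0.61 ± 0.14, adjusted p = 0.0219), and not when mouse 1, 5, 7 or 8 was left out (range -0.71 to -0.50, highest adjusted p = 0.0803). A second, dim probe of Bbs10 gave -0.16 on average (limma adjusted p = 0.0996). The partners of Bbs10 in assembly, Bbs12 (0.06 ± 0.13 on average) and Mkks (-0.07 ± 0.13), did not pass in any comparison.

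Of the 12 IFT-B genes, 4 fell in KO LSK cells (median -0.63), 4 in KO myeloid progenitors (median -0.51) and 7 on average. Ift81 and Ift74 encode the partners that bind tubulin, the main cargo of the trains. Ift81 read 8.33 and 8.84 in the KO LSK mice, against 10.11 and 9.81 in the WT LSK mice. In myeloid progenitors Ift81 read 6.42 and 6.88 in the KO mice, against 8.13 and 7.86 in the WT mice. All KO mice were below the WT mice of their population, with changes of -1.37 ± 0.25 (adjusted p = 0.011) in LSK cells and -1.34 ± 0.25 (adjusted p = 0.0161) in myeloid progenitors. Ift74 read 7.07 and 7.32 in the KO LSK mice, against 8.17 and 8.05 in the WT LSK mice. In myeloid progenitors Ift74 read 6.43 and 6.66 in the KO mice, against 7.71 and 7.44 in the WT mice. Its groups did not overlap either, and Ift74 changed by -0.92 ± 0.17 (adjusted p = 0.0135) in LSK cells and -1.03 ± 0.17 (adjusted p = 0.0096) in myeloid progenitors. Ift81 lost its call in LSK cells when mouse 1 or 2 was left out (range -1.63 to -1.11, highest adjusted p = 0.0693) and in myeloid progenitors when mouse 5, 6 or 7 was left out (range -1.57 to -1.11, highest adjusted p = 0.135), and Ift74 in LSK cells when mouse 1 or 2 was left out (range -1.04 to -0.79, highest adjusted p = 0.0833) and in myeloid progenitors when mouse 5 or 7 was left out (range -1.17 to -0.90, highest adjusted p = 0.0864).

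Ift80, a peripheral IFT-B subunit, read 8.49 and 8.89 in the KO LSK mice, against 9.64 and 9.86 in the WT LSK mice. In myeloid progenitors Ift80 read 8.79 and 8.47 in the KO mice, against 9.67 and 9.68 in the WT mice. It changed by about the same amount in both populations, -1.06 ± 0.23 (adjusted p = 0.0249) in LSK cells and -1.05 ± 0.23 (adjusted p = 0.0368) in myeloid progenitors, and lost its call in LSK cells when mouse 1, 2 or 3 was left out (range -1.27 to -0.86, highest adjusted p = 0.131) and in myeloid progenitors when mouse 1, 3, 5, 6, 7 or 8 was left out (range -1.21 to -0.88, highest adjusted p = 0.374). Ift27, a Rab-like GTPase by which the BBSome leaves the cilium, read 9.96 and 9.54 in the KO LSK mice, against 10.31 and 10.56 in the WT LSK mice. In myeloid progenitors Ift27 read 9.46 and 9.82 in the KO mice, against 10.75 and 10.92 in the WT mice. The groups did not overlap in either population, and Ift27 changed by -1.19 ± 0.24 (adjusted p = 0.0235) in myeloid progenitors, while its difference of -0.68 ± 0.24 (adjusted p = 0.158) in LSK cells did not pass. The myeloid progenitor call was lost when mouse 5, 6, 7 or 8 was left out (range -1.37 to -1.01, highest adjusted p = 0.191).

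Ift88, a core subunit whose loss prevents cilium formation in mice, was among the 3 dimmest members and read 6.404 and 6.13 in the KO LSK mice, against 7.403 and 7.03 in the WT LSK mice. In myeloid progenitors Ift88 read 6.07 and 6.52 in the KO mice, against 6.83 and 6.75 in the WT mice. Its single arrays there overlapped between the genotypes. They read 6.81, 6.67 and 6.08 in KO mouse 8, against 7.04, 7.20 and 6.25 in WT mouse 5 and 7.00, 7.06 and 6.18 in WT mouse 6. Ift88 changed by -0.95 ± 0.17 (adjusted p = 0.0138) in LSK cells, and its difference of -0.49 ± 0.17 (adjusted p = 0.27) in myeloid progenitors did not pass. The LSK call was lost when mouse 1 or 4 was left out (range -1.13 to -0.76, highest adjusted p = 0.0812). Ift172 and Traf3ip1 are further peripheral subunits. Ift172 read 9.53 and 9.71 in the KO LSK mice, against 10.13 and 10.55 in the WT LSK mice. In myeloid progenitors Ift172 read 9.14 and 9.19 in the KO mice, against 9.70 and 9.65 in the WT mice. Traf3ip1, which also binds microtubules, read 8.32 and 8.33 in the KO LSK mice, against 8.72 and 9.10 in the WT LSK mice. In myeloid progenitors Traf3ip1 read 8.55 and 8.55 in the KO mice, against 8.99 and 9.39 in the WT mice. Neither overlapped between KO and WT and both passed on average only, at -0.62 ± 0.15 (adjusted p = 0.0338) and -0.61 ± 0.16 (adjusted p = 0.0379). With the mean of all its probes Traf3ip1 did not pass (-0.34, adjusted p = 0.0784), and its second, dim probe gave -0.07 (adjusted p = 0.393) on average. Ift172 lost its average call when mouse 2, 3, 5, 6, 7 or 8 was left out (range -0.73 to -0.51, highest adjusted p = 0.135) and Traf3ip1 when mouse 2, 3, 4, 6, 7 or 8 was left out (range -0.71 to -0.51, highest adjusted p = 0.135).

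The other 5 IFT-B genes did not pass with the genotype. Ift20, an IFT-B subunit that also sits at the Golgi and serves the immune synapse of T cells, was among the 3 brightest members and read 10.95 and 10.69 in the KO LSK mice, against 10.93 and 10.70 in the WT LSK mice. In myeloid progenitors Ift20 read 11.86 and 11.84 in the KO mice, against 12.04 and 11.26 in the WT mice. The KO and WT mice overlapped in both populations, with changes of 0.0089 ± 0.26 in LSK cells and 0.20 ± 0.26 in myeloid progenitors. Ift57, also among the 3 brightest and the member with an X-box that was not called, read 11.94 and 12.13 in the KO LSK mice, against 12.58 and 12.50 in the WT LSK mice. In myeloid progenitors Ift57 read 11.87 and 11.31 in the KO mice, against 12.50 and 11.69 in the WT mice. Its KO LSK mice were lower and its myeloid progenitor mice overlapped (-0.50 ± 0.28 in LSK cells and -0.51 ± 0.28 in myeloid progenitors), and a second, dim probe of the gene had the opposite sign in both populations (0.10 and 0.43). Ift46 (0.09 ± 0.15 on average), Ift52 (0.27 ± 0.15) and Ttc30b (-0.19 ± 0.11) completed the complex as measured.

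Of the 6 IFT-A genes, 2 fell in KO LSK cells (median -0.64), 2 in KO myeloid progenitors (median -0.51) and 4 on average. Ttc21b, a subunit of the periphery of the complex, had the largest LSK change of the IFT genes. It read 8.58 and 9.03 in the KO LSK mice, against 10.37 and 10.20 in the WT LSK mice. In myeloid progenitors Ttc21b read 8.97 and 8.46 in the KO mice, against 9.69 and 9.13 in the WT mice. The LSK mice differed by -1.48 ± 0.27 (adjusted p = 0.0125), 2.79-fold lower in KO, and the myeloid progenitor mice, which also did not overlap, by -0.70 ± 0.27 (adjusted p = 0.34) without passing. The LSK call was lost when mouse 1 or 2 was left out (range -1.71 to -1.26, highest adjusted p = 0.0758).

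Wdr19 encodes a core subunit of IFT-A and Wdr35 a peripheral one. Wdr19 read 7.20 and 7.24 in the KO LSK mice, against 8.42 and 8.04 in the WT LSK mice. In myeloid progenitors Wdr19 read 6.25 and 6.60 in the KO mice, against 7.30 and 7.54 in the WT mice. Wdr19 changed by -1.01 ± 0.19 (adjusted p = 0.0125) in LSK cells and -0.997 ± 0.19 (adjusted p = 0.0176) in myeloid progenitors with no overlap. Wdr35 read 7.11 and 7.15 in the KO LSK mice, against 7.97 and 7.62 in the WT LSK mice. In myeloid progenitors Wdr35 read 6.399 and 6.72 in the KO mice, against 7.93 and 7.67 in the WT mice. In myeloid progenitors it changed by -1.24 ± 0.18 (adjusted p = 0.0052), a call that held whichever mouse was left out, while its difference of -0.67 ± 0.18 (adjusted p = 0.0724) in LSK cells did not pass. Wdr19 lost its call in LSK cells when mouse 1 or 2 was left out (range -1.20 to -0.82, highest adjusted p = 0.0784) and in myeloid progenitors when mouse 5, 6 or 7 was left out (range -1.17 to -0.82, highest adjusted p = 0.15).

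Ift43, listed on the array under an older clone name and among the 3 dimmest members, read 7.06 and 6.74 in the KO LSK mice, against 7.30 and 7.72 in the WT LSK mice. In myeloid progenitors Ift43 read 6.06 and 6.09 in the KO mice, against 6.22 and 6.59 in the WT mice. It passed on average only (-0.47 ± 0.12, adjusted p = 0.048), and not when mouse 3, 4, 6, 7 or 8 was left out (range -0.57 to -0.36, highest adjusted p = 0.166). Ift122 read 9.70 and 9.53 in the KO LSK mice, against 9.59 and 9.77 in the WT LSK mice. In myeloid progenitors Ift122 read 8.68 and 8.62 in the KO mice, against 9.12 and 8.72 in the WT mice. Its LSK mice overlapped (-0.07 ± 0.22 in LSK cells and -0.27 ± 0.22 in myeloid progenitors). Ift140, the brightest member, read 12.53 and 12.62 in the KO LSK mice, against 12.41 and 12.73 in the WT LSK mice. In myeloid progenitors Ift140 read 11.93 and 11.92 in the KO mice, against 11.78 and 12.09 in the WT mice. The KO and WT mice of Ift140 overlapped in both populations and its changes were 0.0066 ± 0.20 in LSK cells and -0.01 ± 0.20 in myeloid progenitors, neither of which passed.

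The measured motor genes encode the heterotrimeric kinesin-2, and 1 of 3 fell in each population. Kif3a, a motor subunit, read 8.45 and 8.14 in the KO LSK mice, against 9.30 and 8.98 in the WT LSK mice. In myeloid progenitors Kif3a read 7.28 and 7.44 in the KO mice, against 8.24 and 8.15 in the WT mice. The groups did not overlap. Kif3a changed by -0.85 ± 0.20 (adjusted p = 0.0434) in LSK cells, and its difference of -0.84 ± 0.20 (adjusted p = 0.064) in myeloid progenitors did not pass. The LSK call was lost when any single mouse was left out (range -1.005 to -0.69, highest adjusted p = 0.273). Kifap3, which links the motor to its cargo, read 8.62 and 8.22 in the KO LSK mice, against 9.17 and 9.20 in the WT LSK mice. In myeloid progenitors Kifap3 read 7.88 and 8.03 in the KO mice, against 9.53 and 9.02 in the WT mice. It changed by -1.32 ± 0.23 (adjusted p = 0.014) in myeloid progenitors, or 2.49-fold lower in KO, and its difference of -0.76 ± 0.23 (adjusted p = 0.108) in LSK cells did not pass. The myeloid progenitor call was lost when mouse 5, 7 or 8 was left out (range -1.57 to -1.06, highest adjusted p = 0.095). On average both kept their calls whichever single mouse was left out, at -0.84 ± 0.14 and -1.04 ± 0.17, but Kif3a lost it without both mice 1 and 5 (adjusted p = 0.0617). Kif3b did not pass (-0.64 ± 0.29 in LSK cells and 0.04 ± 0.29 in myeloid progenitors), and its second probe, of similar brightness, gave -0.06 and -0.55, so the 2 probes disagreed on which population differed more.

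Of the 4 measured cargo genes, Arl3 and Unc119b fell in both populations, and Arl3 had the largest change of all members in each. Arl3, the GTPase that releases lipid-anchored cargo from its carriers inside the cilium, read 7.93 and 7.85 in the KO LSK mice, against 9.84 and 9.52 in the WT LSK mice. In myeloid progenitors Arl3 read 8.23 and 8.13 in the KO mice, against 10.14 and 9.94 in the WT mice. Its KO and WT mice did not overlap. Arl3 changed by -1.79 ± 0.21 (adjusted p = 0.0011) in LSK cells and -1.86 ± 0.21 (adjusted p = 0.000976) in myeloid progenitors, which is 3.46-fold and 3.63-fold lower in KO cells. Both calls held whichever mouse was left out and without both mice with Kdm5d signal. Unc119b, a carrier of myristoylated proteins that Arl3 unloads, read 8.70 and 9.21 in the KO LSK mice, against 10.50 and 10.44 in the WT LSK mice. In myeloid progenitors Unc119b read 9.63 and 9.35 in the KO mice, against 10.50 and 10.55 in the WT mice. It changed by -1.52 ± 0.23 (adjusted p = 0.0044) in LSK cells and -1.04 ± 0.23 (adjusted p = 0.0427) in myeloid progenitors, where the call was lost when mouse 1, 3, 5, 6, 7 or 8 was left out (range -1.18 to -0.90, highest adjusted p = 0.389). The LSK call was lost without both mice 1 and 5 (adjusted p = 0.0636).

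Pde6d, the carrier of prenylated proteins that Arl3 also unloads, did not pass. It read 8.82 and 9.43 in the KO LSK mice, against 9.49 and 8.99 in the WT LSK mice. In myeloid progenitors Pde6d read 10.74 and 10.56 in the KO mice, against 10.42 and 10.54 in the WT mice. KO and WT mice overlapped in LSK cells (-0.11 ± 0.26), and both KO mice lay above both WT mice in myeloid progenitors (0.17 ± 0.26). Tulp3, the adaptor by which IFT-A brings receptors into the cilium, was among the 3 dimmest members and read 6.61 and 6.63 in the KO LSK mice, against 7.02 and 7.08 in the WT LSK mice. In myeloid progenitors Tulp3 read 6.69 and 6.78 in the KO mice, against 6.46 and 6.81 in the WT mice. It did not pass (-0.43 ± 0.14, adjusted p = 0.12 in LSK cells and 0.10 ± 0.14, adjusted p = 0.919 in myeloid progenitors).

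Of the basal body and transition zone members, Cep290, which builds the gate at the base of the cilium, read 7.45 and 7.54 in the KO LSK mice, against 8.19 and 7.95 in the WT LSK mice. In myeloid progenitors Cep290 read 7.86 and 7.66 in the KO mice, against 8.44 and 8.36 in the WT mice. It was lower in all 4 KO mice and passed on average only (-0.61 ± 0.13, adjusted p = 0.0142), and not when mouse 1 or 8 was left out (range -0.67 to -0.55, highest adjusted p = 0.0829). Ofd1, a protein of the distal centriole, and Rpgr, a transition zone protein known from inherited retinal degeneration, did not pass, with -0.04 ± 0.11 and -0.0028 ± 0.16 on average.

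Other genes of the same machinery were taken from lists that do not overlap with the members. Like the members, these lists were chosen with earlier results of these data known. Their counts stand beside the shares of all genes. In LSK cells 2.9% of all genes fell and 1.74% rose. In myeloid progenitors 1.74% fell and 0.908% rose, and on average 4.85% fell and 3.09% rose. Of 15 measured BBSome, IFT and associated genes outside the list, 3 fell in KO LSK cells, 1 in KO myeloid progenitors and 7 on average, with a median of -0.49 on average and 0 past the threshold on the high side. Hspb11, the partner of Ift27, read 8.40 and 8.47 in the KO LSK mice, against 9.70 and 9.46 in the WT LSK mice. In myeloid progenitors Hspb11 read 8.07 and 8.03 in the KO mice, against 8.82 and 8.96 in the WT mice. Its groups did not overlap. Hspb11 changed by -1.14 ± 0.20 (adjusted p = 0.0087) in LSK cells, its difference of -0.84 ± 0.20 (adjusted p = 0.0533) in myeloid progenitors did not pass, and the LSK call was lost when mouse 1 was left out (range -1.27 to -1.02, highest adjusted p = 0.0745). Rabl2, a GTPase that binds IFT-B, read 8.75 and 8.48 in the KO LSK mice, against 9.23 and 9.54 in the WT LSK mice. In myeloid progenitors Rabl2 read 8.65 and 8.39 in the KO mice, against 9.56 and 9.22 in the WT mice. It changed by -0.82 ± 0.16 (adjusted p = 0.0101) on average. Sdccag8, a centrosomal protein, read 8.73 and 8.56 in the KO LSK mice, against 9.27 and 9.43 in the WT LSK mice. In myeloid progenitors Sdccag8 read 8.21 and 8.10 in the KO mice, against 9.11 and 8.63 in the WT mice. Its average change was -0.71 ± 0.16 (adjusted p = 0.0183). Ttc26, an IFT-B subunit, read 6.81 and 6.90 in the KO LSK mice, against 7.76 and 7.45 in the WT LSK mice. In myeloid progenitors Ttc26 read 6.60 and 6.41 in the KO mice, against 7.29 and 6.89 in the WT mice. For Ttc26 the average change was -0.67 ± 0.12 (adjusted p = 0.0063). The other 3 of the 7, chosen after their values were seen, were Wdpcp (-0.62 ± 0.12, adjusted p = 0.0197 in LSK cells, -0.72 ± 0.12, adjusted p = 0.0125 in myeloid progenitors), Tctex1d2 (-0.64 ± 0.17 on average) and Ift22 (-0.49 ± 0.12). The Ttc26 call in LSK cells was lost when mouse 1, 2, 4 or 8 was left out (range -0.91 to -0.60, highest adjusted p = 0.205), and those of Wdpcp in LSK cells when mouse 1, 2 or 4 was left out (range -0.74 to -0.49, highest adjusted p = 0.137) and in myeloid progenitors when mouse 5, 6 or 7 was left out (range -0.80 to -0.63, highest adjusted p = 0.0996). With the mean of all its probes Rabl2 did not pass on average (-0.50, adjusted p = 0.0603). On average Rabl2 lost its call when mouse 8 was left out (range -0.91 to -0.74, highest adjusted p = 0.0608), Sdccag8 when mouse 3, 5, 7 or 8 was left out (range -0.83 to -0.59, highest adjusted p = 0.0893), Tctex1d2 when mouse 1, 2, 5, 6 or 8 was left out (range -0.77 to -0.52, highest adjusted p = 0.193) and Ift22 when mouse 1, 4, 5, 7 or 8 was left out (range -0.57 to -0.40, highest adjusted p = 0.132).

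The transition zone list, the gate at the base of the cilium, held 20 measured genes. Of these 3 fell in KO LSK cells, 2 in KO myeloid progenitors and 5 on average. The 1 that rose on average, beside 3.09% of all genes, is not read as a result about the list. The list's median on average was -0.07. B9d1, of the MKS module, read 6.34 and 6.26 in the KO LSK mice, against 7.52 and 7.52 in the WT LSK mice. In myeloid progenitors B9d1 read 6.44 and 6.35 in the KO mice, against 7.33 and 7.34 in the WT mice. Its KO mice lay below the WT mice in both populations, with changes of -1.22 ± 0.12 (adjusted p = 0.000474) in LSK cells and -0.94 ± 0.12 (adjusted p = 0.0023) in myeloid progenitors, and both calls held whichever mouse was left out. As background, mutations of MKS genes cause ciliopathies. Tmem231, a membrane protein of the same module, read 6.46 and 6.73 in the KO LSK mice, against 7.46 and 7.55 in the WT LSK mice. In myeloid progenitors Tmem231 read 6.22 and 6.22 in the KO mice, against 6.72 and 7.12 in the WT mice. Tmem231 changed by -0.91 ± 0.16 (adjusted p = 0.0081) in LSK cells and -0.70 ± 0.16 (adjusted p = 0.0426) in myeloid progenitors. Those calls were lost in LSK cells when mouse 2 was left out (range -1.04 to -0.78, highest adjusted p = 0.058) and in myeloid progenitors when mouse 6, 7 or 8 was left out (range -0.90 to -0.50, highest adjusted p = 0.25). With the mean of all its probes Tmem231 did not pass in LSK cells (-0.42, adjusted p = 0.0714) or myeloid progenitors (-0.35, adjusted p = 0.198), and without the trend and robust options it did not pass in myeloid progenitors. Tmem67 changed by -0.98 ± 0.19 (adjusted p = 0.0084) on average and Nek8, a kinase of the proximal cilium, by 0.72 ± 0.19 (adjusted p = 0.0453), a call lost when mouse 1, 3, 4, 5, 6 or 8 was left out (range 0.56 to 0.89, highest adjusted p = 0.198). Invs (-0.86 ± 0.15, adjusted p = 0.0112 in LSK cells) and Tctn3 (-0.57 ± 0.14, adjusted p = 0.0287 on average), chosen after their values were seen, completed the calls. Invs lost its LSK call when mouse 2 was left out (range -0.998 to -0.71, highest adjusted p = 0.075) and its average call when mouse 8 was left out (range -0.61 to -0.47, highest adjusted p = 0.0531), and Tctn3 its average call when mouse 1, 3, 5, 6, 7 or 8 was left out (range -0.60 to -0.55, highest adjusted p = 0.141).

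Of 21 centriole and basal body genes, Ttbk2, the kinase that starts cilium growth by removing the cap protein Ccp110 from the centriole, fell in both populations. Ttbk2 read 7.18 and 7.35 in the KO LSK mice, against 8.99 and 8.82 in the WT LSK mice. In myeloid progenitors Ttbk2 read 7.47 and 7.28 in the KO mice, against 8.49 and 8.67 in the WT mice. Ttbk2 changed by -1.64 ± 0.19 (adjusted p = 0.001) in LSK cells and -1.21 ± 0.19 (adjusted p = 0.0064) in myeloid progenitors with no overlap. The myeloid progenitor call was lost when mouse 6 or 8 was left out (range -1.30 to -1.11, highest adjusted p = 0.0872). Ccp110 passed on average only (-0.62 ± 0.17, adjusted p = 0.0482), and not when mouse 1, 2, 3, 5, 6, 7 or 8 was left out (range -0.78 to -0.46, highest adjusted p = 0.192). The list's median on average was -0.19.

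Hedgehog signalling runs through the cilium in vertebrates. Of 14 genes of the ciliary Hedgehog pathway, limma called 0 in either population or on average, with 0 lower at an unadjusted p under 0.05 and 1 higher in myeloid progenitors and on average, and the median on average was 0.03. Among all genes 2.9% fell in LSK cells, 1.74% in myeloid progenitors and 4.85% on average. The list's median signal was 6.32 to 6.69 over the mice, near the low end of the arrays. A fall of its dim genes could hardly be read. Of 7 ciliary membrane cargo genes 1 rose in KO LSK cells, the receptor Mchr1, which read 7.06 and 6.77 in the KO LSK mice, against 6.19 and 6.17 in the WT LSK mice (0.73 ± 0.11, adjusted p = 0.0052), with WT signal near the low end of the arrays. Mchr1 also passed on average (0.38 ± 0.08, adjusted p = 0.0152), and not when mouse 5, 6 or 7 was left out (range 0.31 to 0.45, highest adjusted p = 0.0607). Among 9 measured regulators of RFX and motile cilium type, the X-box factor gene Rfx3 fell in both populations. Rfx3 read 8.10 and 7.84 in the KO LSK mice, against 9.04 and 8.64 in the WT LSK mice. In myeloid progenitors Rfx3 read 7.45 and 7.30 in the KO mice, against 8.51 and 8.42 in the WT mice. Rfx3 changed by -0.87 ± 0.21 (adjusted p = 0.041) in LSK cells and -1.09 ± 0.21 (adjusted p = 0.0182) in myeloid progenitors. It lost its call in LSK cells when mouse 1, 2, 4, 5, 6, 7 or 8 was left out (range -1.07 to -0.66, highest adjusted p = 0.278) and in myeloid progenitors when mouse 5, 6, 7 or 8 was left out (range -1.17 to -1.02, highest adjusted p = 0.187), and on average it held whichever mouse was left out (-0.98 ± 0.15, adjusted p = 0.0021). With the mean of all its probes the LSK call was lost (-0.49, adjusted p = 0.109). Without both mice 1 and 5, of all the related genes named here, B9d1, Tmem231 and Ttbk2 kept their calls in both populations and on average, Hspb11, Wdpcp and Rfx3 kept theirs on average alone, and the others lost theirs.

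**Figure D4:**
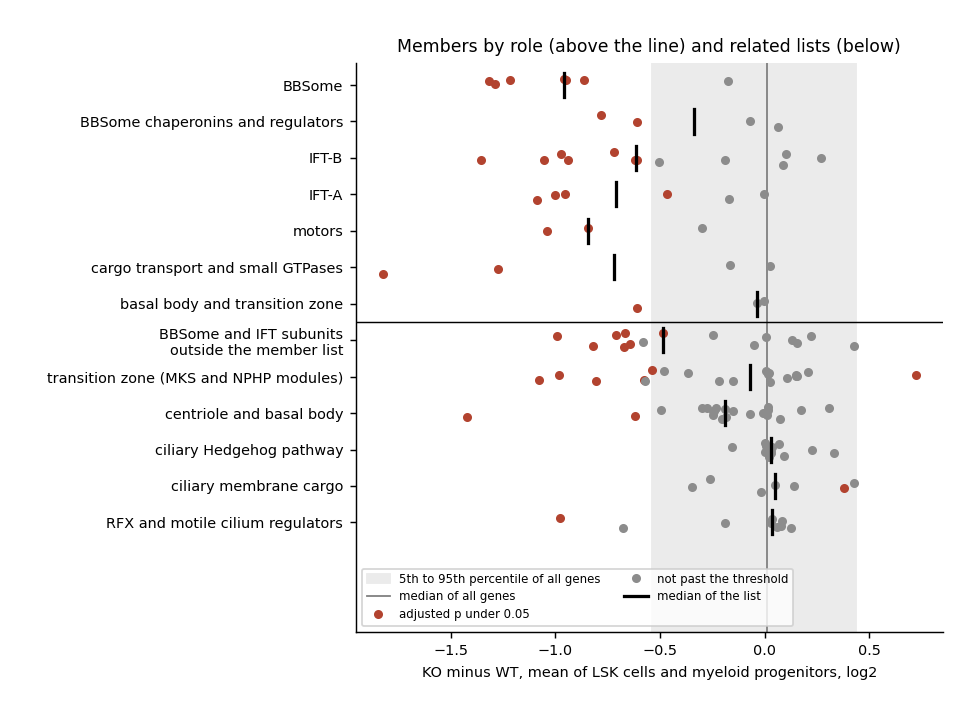
Change of every measured gene (points) as KO minus WT on the log2 scale, averaged over LSK cells and myeloid progenitors, by role of the members (above the line) and by related list (below), with the median of each list (black bars) and the central part of all genes (grey). The medians run from -0.96 for the BBSome subunits to 0.05 for the ciliary membrane cargo, and the vertical spread of points carries no meaning.

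The members also differed between LSK cells and myeloid progenitors of the same genotype, and most of those called were higher in LSK cells. In KO mice 8 of the 39 were higher in LSK cells (7.26% of all genes) and 2 were lower (5.49%). In WT mice 7 were higher (8.08% of all genes) and 1 was lower (5.46%). These contrasts use the same mice as those with the genotype. Ift81 differed most in both, 3.84-fold higher in KO LSK cells than in KO myeloid progenitors (1.94 ± 0.25, adjusted p = 0.000876) and 3.9-fold higher in WT LSK cells than in WT myeloid progenitors (1.97 ± 0.25, adjusted p = 0.000607). As its values above show, each LSK mouse was above each myeloid progenitor mouse of its genotype.

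Bbs1, Bbs4, Ift43, Ift122, Wdr19 and Kif3a were likewise higher in LSK cells in both genotypes. Bbs1 differed by 0.90 ± 0.17 (adjusted p = 0.0062) in KO mice and 1.06 ± 0.17 (adjusted p = 0.0023) in WT mice, and Ift43 by 0.82 ± 0.18 (adjusted p = 0.0131) in KO mice and 1.11 ± 0.18 (adjusted p = 0.0027) in WT mice. The KO myeloid progenitor means of Bbs1, Ift43 and Wdr19 and the WT myeloid progenitor mean of Ift43 were below 6.5, so these differences are best read as minimums too. The other 4 differed by 0.78 to 0.96 in KO mice and by 0.76 to 0.94 in WT mice. Ift74 passed in KO mice (0.65 ± 0.17, adjusted p = 0.0314) and not in WT mice (0.53 ± 0.17, adjusted p = 0.0672), and the difference between these 2 contrasts is the difference tested above, which passed for 0 members. Pde6d, which did not pass with the genotype, was lower in LSK cells in both genotypes (-1.52 ± 0.26, adjusted p = 0.0042 in KO mice, -1.24 ± 0.26, adjusted p = 0.0102 in WT mice). Ift20 was lower in KO LSK cells than in KO myeloid progenitors (-1.03 ± 0.26, adjusted p = 0.0249) and did not pass in WT mice (-0.84 ± 0.26, adjusted p = 0.0567).

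Ift81 and Bbs1 kept their calls in both genotypes whichever mouse was left out, as did Pde6d in KO mice and Ift43 in WT mice. The KO calls of the others were lost for Bbs4 when mouse 1, 2, 3, 7 or 8 was left out (range 0.71 to 0.86, highest adjusted p = 0.217), Ift74 when mouse 2, 4, 7 or 8 was left out (range 0.53 to 0.77, highest adjusted p = 0.227), Ift43 when mouse 2, 7 or 8 was left out (range 0.67 to 0.98, highest adjusted p = 0.0994), Ift122 when mouse 2, 7 or 8 was left out (range 0.88 to 1.04, highest adjusted p = 0.108), Wdr19 when mouse 2, 4 or 7 was left out (range 0.63 to 0.97, highest adjusted p = 0.17), Kif3a when mouse 2, 7 or 8 was left out (range 0.78 to 1.09, highest adjusted p = 0.114) and Ift20 when mouse 2, 4, 7 or 8 was left out (range -1.16 to -0.90, highest adjusted p = 0.123). The WT calls were lost for Bbs4 when mouse 1, 3 or 6 was left out (range 0.78 to 1.09, highest adjusted p = 0.0964), Ift122 when mouse 1, 3, 6, 7 or 8 was left out (range 0.56 to 0.96, highest adjusted p = 0.195), Wdr19 when mouse 1 or 5 was left out (range 0.62 to 0.997, highest adjusted p = 0.123), Kif3a when mouse 1 or 6 was left out (range 0.78 to 1.10, highest adjusted p = 0.104) and Pde6d when mouse 3 or 6 was left out (range -1.49 to -0.99, highest adjusted p = 0.0816). The mice with Kdm5d signal, 1 and 5, are not in the KO contrast, and its changes were the same without them. In the WT contrast without both, Ift81 differed by 1.95, Wdr19 moved from 0.81 to 0.50 and Pde6d from -1.24 to -1.55. The number of members called moved with single mice in both genotypes. The KO count was 3 without mouse 2 or 7 and 4 without mouse 8, and the WT count was 4 without mouse 1.

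**Figure D5:**
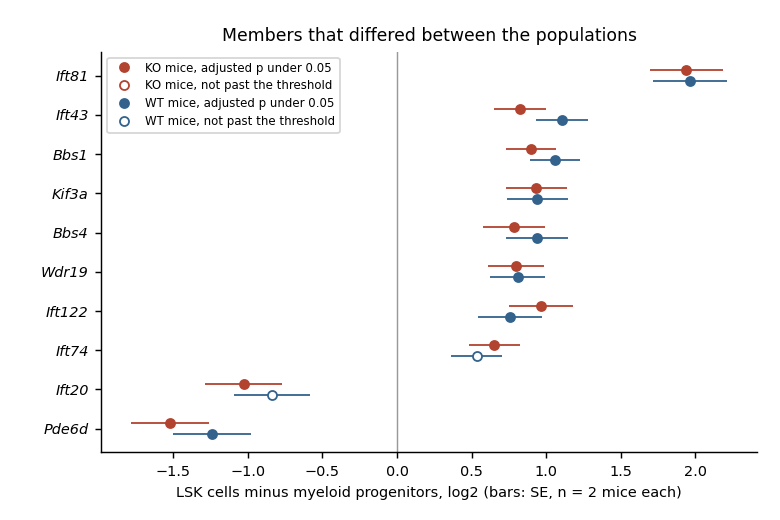
Difference of the 10 members called in a population contrast, LSK cells minus myeloid progenitors on the log2 scale with the SE, in KO mice (red) and WT mice (blue), 2 mice per group, with filled points past an adjusted p of 0.05. Ift81 stands farthest to the right in both genotypes and Pde6d farthest to the left.

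Markers of other cells moved with the genotype in the same samples. For comparison, 2.9% of all genes fell and 1.74% rose in KO LSK cells, and 1.74% fell and 0.908% rose in KO myeloid progenitors. Of 8 measured B cell markers, 5 (Ebf1, Vpreb1, Vpreb3, Igll1 and Ms4a1) fell in each population, and the mean log2 value of the list was 7.31 to 7.58 in KO LSK mice against 9.57 to 9.71 in WT LSK mice, and 7.46 to 7.53 in KO myeloid progenitor mice against 9.16 to 9.45 in WT ones. Of 11 myeloid markers, 3 rose in KO LSK cells (Elane, Ctsg and Cebpe), where the list's mean was 10.95 to 11.38 against 10.24 to 11.004 in WT LSK mice, and 0 passed in myeloid progenitors, with 0 higher and 2 lower at an unadjusted p under 0.05. Elane lost that call when mouse 1, 4, 5 or 6 was left out (range 1.45 to 2.36, highest adjusted p = 0.117), Ctsg when mouse 1, 2, 4, 5, 6, 7 or 8 was left out (range 0.73 to 1.69, highest adjusted p = 0.234) and Cebpe when mouse 1, 2, 3, 4, 7 or 8 was left out (range 0.77 to 1.05, highest adjusted p = 0.246). In myeloid progenitors Ms4a1 lost its call when mouse 5, 6, 7 or 8 was left out (range -0.43 to -0.42, highest adjusted p = 0.135). Of 9 stem cell markers, Tek fell in KO LSK cells and Cd34 in KO myeloid progenitors, the last call lost when mouse 8 was left out (range -1.32 to -1.03, highest adjusted p = 0.0834). At an unadjusted p under 0.05, limma had 4 stem cell markers lower and 0 higher in LSK cells. In myeloid progenitors it had 2 lower and 3 higher. The part of these shifts in the lower values of the members was not tested.

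Markers of cells that carry many cilia and of the bone marrow niche were read as well, beside the same shares of all genes. Of 11 multiciliated cell markers, limma called 0 in LSK cells (2 lower and 0 higher at an unadjusted p under 0.05) and 1 lower in myeloid progenitors, Rsph1, a radial spoke gene (-1.05 ± 0.17, adjusted p = 0.0074). That call was lost when mouse 6, 7 or 8 was left out (range -1.17 to -0.94, highest adjusted p = 0.0598). The list's mean was 6.86 to 7.06 in KO LSK mice against 6.97 to 7.08 in WT LSK mice, and 6.72 to 6.98 in KO myeloid progenitor mice against 7.03 to 7.17 in WT ones. Of 12 stroma markers limma called 0 in either population (1 higher and 2 lower in LSK cells and 0 in myeloid progenitors at an unadjusted p under 0.05), with a mean of 7.32 to 7.41 in KO LSK mice against 7.41 to 7.55 in WT LSK mice, and 7.35 to 7.45 in KO myeloid progenitor mice against 7.48 to 7.505 in WT ones. The stroma list's median was 6.60 to 6.95 over the mice, below the array medians of 7.17 to 7.18. A fall of its dim genes could hardly be read. Of 9 endothelial markers, Emcn fell in both populations and Cldn5 rose in KO LSK cells. Emcn lost its myeloid progenitor call when mouse 5, 7 or 8 was left out (range -1.84 to -1.05, highest adjusted p = 0.0964). The endothelial list had a mean of 8.86 to 9.17 in KO LSK mice against 8.90 to 9.05 in WT LSK mice, and 7.91 to 8.03 in KO myeloid progenitor mice against 8.04 to 8.08 in WT ones. The part of these markers in the result was not tested.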

How the data were processed

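RNA of sorted LSK cells and myeloid progenitors was hybridised to 24 one-colour arrays, 3 for each of 8 mice. The authors deposited log2 signals (5.66 to 15.93) whose arrays differed by at most 0.0451 at any rank; limma, with no version, is named in the submitters' processing notes. No source used here names the scanner or the background correction. Groups were taken from the labels, and nothing beyond the mouse numbers says how the mice were housed or processed, so p-values speak for these mice alone. The spread behind a p-value is pooled over the 4 groups and drawn towards that of other probes of similar signal.

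Arrays of a mouse were averaged, and 22439 probes were fitted in limma 3.58.1 (R 4.3.3) on 4 groups with the trend and robust options (4 residual and 6.91 prior degrees of freedom). The fit was also run on simulated independent normal values with spreads taken from the fit itself, which checks the code and not its assumptions. Benjamini-Hochberg adjustment ran over all probes, with a threshold of 0.05, and no filter on dim probes. A gene is its brightest probe over all mice. Older array names were updated through RefSeq (GRCm38.p6), which brought in Ift43, and promoter windows came from the same source for 38 of the 43 listed genes, 35 of them measured.

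The members, the related lists and the rule for named genes were chosen with earlier results of these data known. The rule gives each mouse's value for members past the threshold in any of 6 contrasts, for the 4 largest changes per population, and for the 3 brightest and 3 dimmest members, and up to 4 called genes of each related list. Alternatives were a mouse block, an array-number block, the compared groups alone, no trend and robust options, a filter on dim probes, arrays centred on their medians, the mean of all probes, and leaving out each mouse or mice 1 and 5.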

Additional observations from a re-analysis of the deposited data

How the results depend on the processing

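With all 24 arrays and the mouse as a random block, 25 members passed in LSK cells, 17 in the KO population contrast (LSK cells minus myeloid progenitors) and 19 in the WT one. Such a fit takes the 3 arrays of a mouse as partly independent (correlation between arrays of a mouse 0.44). Those arrays repeat the RNA of 1 mouse and add no mice. The array numbers did not pair the samples (of 84 same-number pairs of arrays, 9 correlated above 0.1, median 0.0057, other pairs 0.0049). Adding them as a replicate block gave 25, 17 and 17, and 22 in myeloid progenitors. Probes above the 25th percentile gave 14 in the WT population contrast. With the mean of all probes of a gene the median change in myeloid progenitors was -0.52. Without mice 1 and 5, 3 members passed in LSK cells, 5 in myeloid progenitors (median change -0.51) and 3 in the WT population contrast. Over the fits without 1 mouse the counts were 5 to 15 in LSK cells, 4 to 16 in myeloid progenitors (median change -0.74 to -0.51), 19 to 22 on average, 3 to 11 in the KO population contrast and 4 to 9 in the WT one (median 0.086 to 0.34). Why these values moved was not tested. The counts in this section stand without the share of all genes that each fit called. They are therefore not read as results about the members. Without the trend and robust options 11 members passed in LSK cells, 10 in myeloid progenitors and 23 on average, and with the compared groups alone 12 in LSK cells and 16 in myeloid progenitors. The mean of all probes gave 22 on average, with Ift43 and Traf3ip1 lost. The change of Ift43 was the same in that fit (-0.47), and only its adjusted p moved, to 0.0521. In the fits that test it the number of members whose change differed between populations was 0, and 0 of the changes of the members called in the reported fit changed sign. The number of mice limits every value, and each call within a population compares 4 mice.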
